A study of Homo sapiens with 8 samples.

Results

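RAB proteins are small GTPases that switch between a GTP-bound form on membranes and a GDP-bound form in the cytosol. Each marks certain vesicles or organelles and recruits effectors, such as motors and tethers, that move and dock the vesicle. In polarized epithelial cells some RABs, RAB25 and RAB17 among them, serve the recycling of cargo to the apical surface. The 23 RAB genes described here are all symbols in the authors' table that consist of RAB, a number and an optional letter, out of 8915 named genes. They had 32 probe sets out of 54613 on the array that were not controls. For each gene the probe set with the highest mean over all arrays was used. Of the 23 genes, 17 had a single named probe set and 6 had more, and no member was listed as RAB11B, so that gene was not analysed here.

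The samples came from HMLE, a line of human mammary epithelial cells immortalized with telomerase and the SV40 early region, grown in MEGM medium. CD24hi cells were selected by sorting for the surface protein CD24 and are labelled as epithelial. MSP1, MSP2 and MSP3 are labelled as mesenchymal subpopulations of the same line, and no sort or clone is given for them in the labels. Each of the 4 groups had 2 arrays, a and b, of total RNA on single-colour Affymetrix arrays. In such bulk RNA, fewer cells that express a gene and less RNA per cell cannot be told apart. Whether a and b came from separate cultures is not recorded, so the p-values reflect only array-to-array spread, possibly technical in origin.

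The summed markers followed the labels of the groups, but not every marker set them apart. Of 8 epithelial markers 7 were lower in the MSP groups, and their summed signal was 50176 and 34812 on the CD24hi arrays against 2819 to 5754 on the 6 MSP arrays. CD24 was among them and was the sort marker. KRT14, the epithelial marker that was not called, read 12425 and 8835 in CD24hi and still 2386 to 4831 on the MSP arrays (limma adjusted p = 0.0677). It made up 2506 of the summed 3021 on MSP1 a. Of 6 mesenchymal markers 3 were higher, with sums of 6718 to 9884 in CD24hi and 25243 to 39816 in the MSP groups. VIM was high in all groups, at 7893 and 5940 in CD24hi and 8002 to 11131 on the MSP arrays. Over all probe sets 1.59% were called lower and 1.58% higher. However, 7 of the epithelial and 4 of the mesenchymal markers had a name here only because the authors had called them. These held all of the calls but that of CD24, so the counts were largely fixed by that selection and the sort. Of 5 leukocyte markers 4 were measured and none was called, with sums of 99.4 and 138 in CD24hi and 94.4 to 118 in the MSP groups. PTPRC, the defining one, stayed at or under 5.29 on every array, while CD79A read 55.3 to 81. Of 5 endothelial markers 4 were measured and none was called, with sums of 58.6 and 59.6 in CD24hi and 76.8 to 107 in the MSP groups. CDH5, KDR and VWF lay under 32 on every array, and PECAM1 read 38.2 to 74.4. Every array had been scaled to a trimmed mean of 150, and 57.6% to 60.3% of probe sets lay under 32 units. Below that level the spread between arrays of a group widened, from a residual SD of 0.40 log2 units above 512 units to 1.27 under 8. Signals under 32 are therefore called dim. Where a group is dim, folds divide the brighter level by 32 and read "at least".

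Gene names limited what could be counted. The authors' table opened with 2256 probe sets that passed their own test in all 3 of their comparisons, and then followed array order only part of the way. RAB23, RAB24, RAB25, RAB30 and RAB38 have a name here only because the authors had called them. The 18 other genes also have a probe set in the part that was named without regard to a result, although the RAB17 probe set used here came from the called block. Other probe sets of the array may belong to RAB genes and are unnamed here.

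The upstream sequences of 3 members are shown because RAB25 carried the widest change, RAB17 is another RAB of epithelial cells, and RAB11A is the ubiquitous relative of RAB25. They are the 250 bases before the annotated start in RefSeq, assembly GRCh38.p14, written along the gene's strand. Capitals mark CACCTG or its reverse complement CAGGTG, the E-box that the repressors ZEB1 and SNAI1 are known to bind. ZEB1 itself had signals of 3.64 and 11.4 in CD24hi and 354 to 649 in the MSP groups. The RAB25 sequence is chr1:156060910-156061159 on the plus strand, that of RAB17 chr2:237590735-237590984 on the minus strand, and that of RAB11A chr15:65869241-65869490 on the plus strand.
RAB25: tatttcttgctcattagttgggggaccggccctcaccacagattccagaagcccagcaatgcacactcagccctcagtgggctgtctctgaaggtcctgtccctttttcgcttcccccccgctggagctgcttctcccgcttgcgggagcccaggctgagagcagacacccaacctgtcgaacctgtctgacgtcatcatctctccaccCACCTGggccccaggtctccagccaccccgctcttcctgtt
RAB17: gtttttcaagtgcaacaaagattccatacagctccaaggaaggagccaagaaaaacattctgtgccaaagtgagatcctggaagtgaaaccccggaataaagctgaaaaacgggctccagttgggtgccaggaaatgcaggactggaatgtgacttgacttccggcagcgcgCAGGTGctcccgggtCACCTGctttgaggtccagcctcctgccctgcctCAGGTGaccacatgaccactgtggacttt
RAB11A: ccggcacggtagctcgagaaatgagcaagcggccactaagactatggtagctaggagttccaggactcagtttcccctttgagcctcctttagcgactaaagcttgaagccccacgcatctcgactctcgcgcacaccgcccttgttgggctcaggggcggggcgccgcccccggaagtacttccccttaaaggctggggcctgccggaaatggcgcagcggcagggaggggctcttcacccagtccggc

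The E-box was found 41 bases before the start of RAB25, and 78, 63 and 29 bases before that of RAB17. The RAB11A window held neither spelling. Of the 23 members, 21 had an upstream sequence in the RefSeq table, and 5 of these held the E-box on either strand. The others were RAB4A, RAB5B and RAB5C. Of all 27305 upstream windows of the same length, 17.5% held it. The wider form CANNTG, which includes it, was in 13 of the 21 and in 62.2% of all windows. A match describes letters in a window and is not evidence of binding, and a role of ZEB1 in the changes of these genes was not tested. RAB38 and RAB39 had no entry.

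RAB25 and RAB38 were lower in the mesenchymal subpopulations, and no RAB gene was called higher. The comparison set the mean of MSP1, MSP2 and MSP3 against CD24hi, with limma on log2 signals and Benjamini-Hochberg adjustment over all 54613 probe sets, called at an adjusted p under 0.05. Of the 23 members 2 were called lower, or 8.7%, where 1.59% of all probe sets were called lower. None was called higher, where 1.58% of all probe sets were. At an unadjusted p under 0.05, 4 members were lower, where 7.56% of all probe sets were, and 3 were higher, where 8.80% were. Both called genes, and the 3 that were higher at an unadjusted p under 0.05, were the 5 that the authors' calls had named. The counts were raised by that selection and cannot be weighed against the shares of all probe sets. In limma 0 of the 18 others were called, with RAB17 and RAB7B lower among these at an unadjusted p under 0.05. The median change over the 23 members was -0.04 on the log2 scale, against 0.02 over all probe sets.

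**Figure D1:**
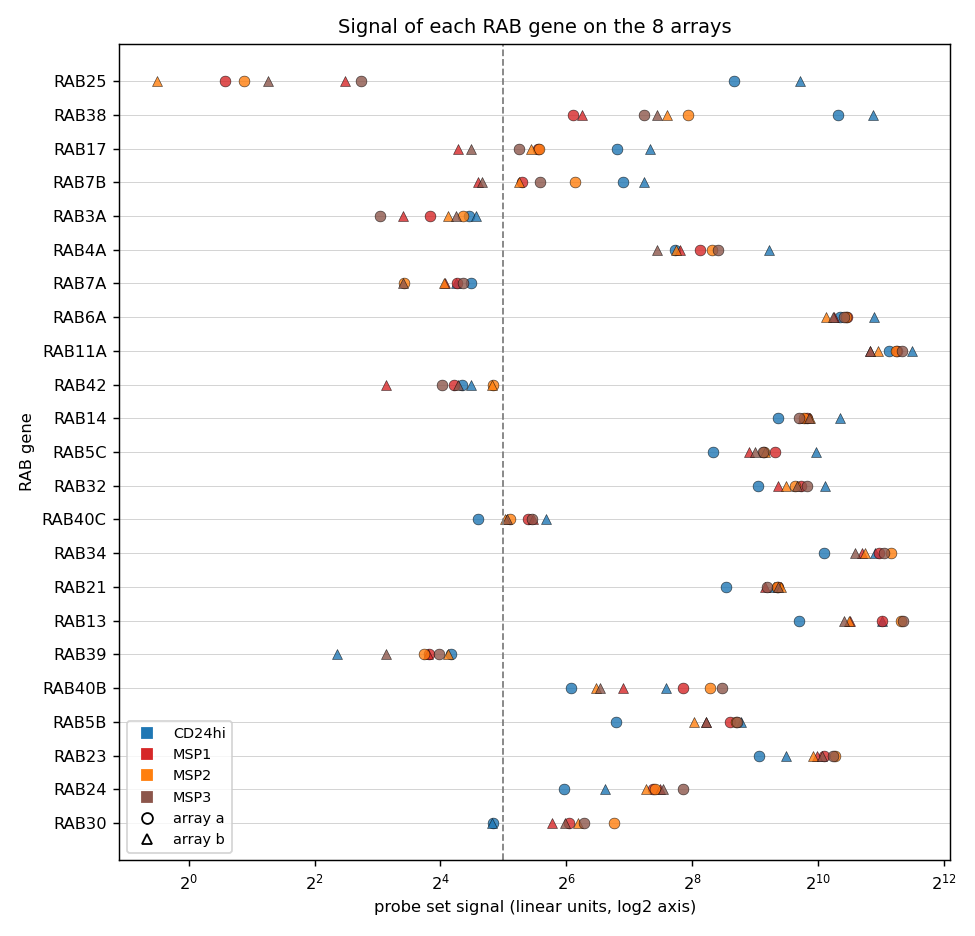
Probe set signal (linear units on a log2 axis) of the 23 RAB genes on the 8 arrays, with colour for the group, circles for array a and triangles for array b, and a dashed line at 32 units. RAB25 and RAB38 stand apart between CD24hi and the MSP arrays, while RAB39, RAB3A, RAB42 and RAB7A lie under 32 on every array.

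Among the RABs of recycling endosomes and polarized delivery, RAB25 fell and the others did not pass the test. RAB25 belongs to the RAB11 subfamily, is restricted largely to epithelia and takes part in apical recycling and in integrin recycling. Its signal was 408 on CD24hi a and 837 on CD24hi b. It was 1.49 and 5.58 in MSP1, 1.83 and 0.706 in MSP2, and 6.70 and 2.40 in MSP3. All 6 MSP arrays lay far inside the dim range and both CD24hi arrays far above it. The group levels were 585 in CD24hi and 2.36 in the MSP mean, which puts RAB25 at least 18.3-fold down. The fitted log2 change was -7.95 with an SE of 0.74 (n = 2 arrays in each group, limma adjusted p = 0.00613), and values after ± are SEs from here on. With dim signals raised to 32 the change was -4.19, and with 16 added before the log it was -4.99, and RAB25 was called in both. Without CD24hi b the change was -7.43 and the call was lost (adjusted p = 0.0551, against 0.0164 to 0.0389 without each other array).

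RAB11A, which runs the general recycling endosome, had signals of 2237 and 2899 in CD24hi and 1819 to 2600 on the MSP arrays, so the groups overlapped. Its log2 change was -0.24 ± 0.31 (adjusted p = 0.770), with a 95% interval from -1.0 to 0.52. A second RAB11A probe set changed by 0.11 ± 0.35 and was not called either. RAB13, which acts in the assembly of tight junctions, read 828 and 2083 in CD24hi and 1360 to 2612 on the MSP arrays (0.49 ± 0.51, adjusted p = 0.701). RAB14, a RAB of transport between Golgi and endosomes, read 660 and 1307 in CD24hi and 831 to 942 on the MSP arrays (-0.06 ± 0.34). For RAB14 all MSP arrays lay between the CD24hi arrays, and for RAB13 the groups overlapped. Thus 1 of the 4 members in this class was called.

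Among the RABs of late endosomes, lysosomes and related organelles, RAB38 fell. RAB38 and its relative RAB32 deliver cargo to lysosome-related organelles such as the melanosome. The RAB38 signal was 1280 and 1881 in CD24hi, 69.2 and 75.8 in MSP1, 246 and 195 in MSP2, and 151 and 173 in MSP3. Every MSP array was lower than both CD24hi arrays, and all 8 values were above the dim range. The level went from 1551 to 137, 11.3-fold lower (log2 change -3.50 ± 0.29, adjusted p = 0.00529). This call held without each array in turn, with changes from -3.78 to -3.23. RAB32 read 531 and 1109 in CD24hi and 661 to 904 in the MSP groups, all between the CD24hi arrays (0.04 ± 0.36, adjusted p = 0.975).

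RAB7B, which acts in transport from late endosomes to the Golgi, read 120 and 151 in CD24hi. It read 39.1 and 24.3 in MSP1, 70.4 and 37.9 in MSP2, and 47.8 and 25.4 in MSP3. The groups did not overlap, but the difference of -1.82 ± 0.43 did not pass the test (adjusted p = 0.0968). The named probe set of RAB7A, the general late endosome RAB, was dim on every array, at 10.6 to 22.3 units. Of melanocyte markers, listed because of the melanosome role of RAB38, only MITF and TYR of 6 were measured. MITF was higher in the MSP groups (level 154 against 35.3, log2 change 2.12 ± 0.38, adjusted p = 0.0453), and TYR was dim in both.

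**Figure D2:**
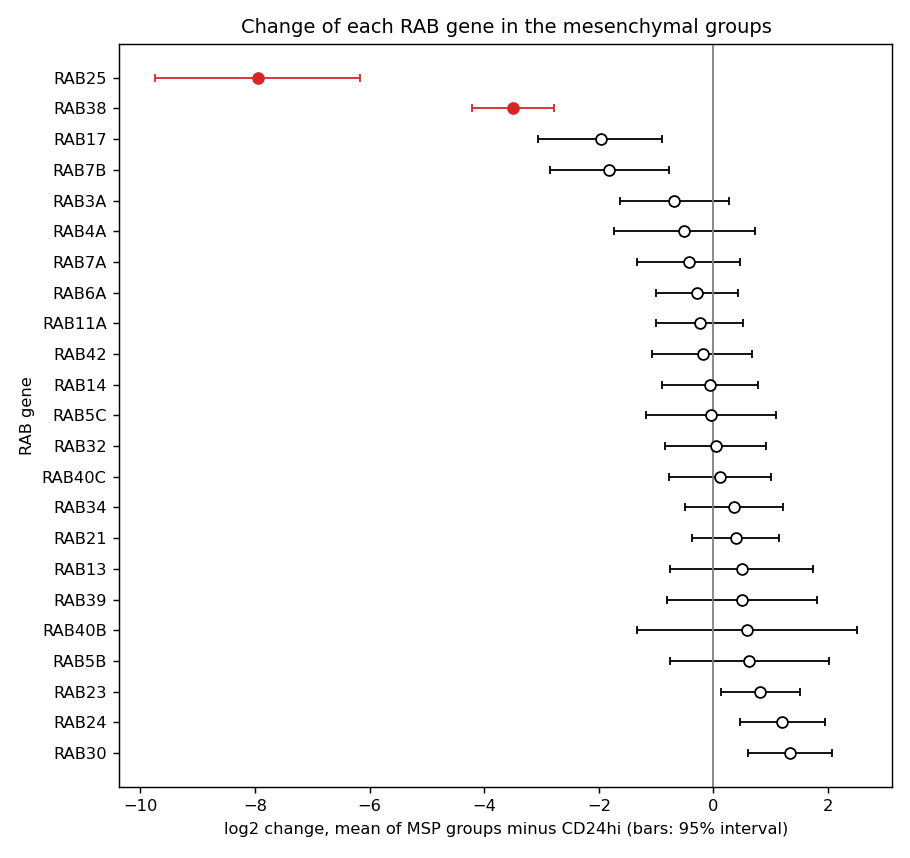
Log2 change of each RAB gene, mean of the 3 MSP groups minus CD24hi, with 95% intervals; filled red points passed an adjusted p under 0.05. RAB25 (-7.95) and RAB38 (-3.50) are called, RAB17, RAB7B, RAB23, RAB24 and RAB30 have intervals that leave out 0 without being called, and the other intervals cross 0.

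None of the 6 RABs of early endosomes and endocytosis was called. RAB17, which serves transcytosis and apical recycling in polarized epithelium, had signals of 112 and 161 in CD24hi. It read 47.1 and 19.4 in MSP1, 47.4 and 43.3 in MSP2, and 37.9 and 22.3 in MSP3, all under both CD24hi values. The level was 134 in CD24hi and 34.2 in the MSP mean, a difference of -1.97 ± 0.45 that missed the threshold (adjusted p = 0.0887). A second RAB17 probe set stayed between 0.845 and 7.5 units, and with the mean of both probe sets the difference was -0.66 (adjusted p = 0.554). RAB24, which has been linked to late steps of autophagy, read 62.6 and 97.8 in CD24hi. It read 154 to 232 on the 6 MSP arrays, all above CD24hi (1.20 ± 0.30, adjusted p = 0.115).

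RAB21, which takes part in integrin endocytosis, read 373 and 628 in CD24hi and 571 to 681 in the MSP groups (0.39 ± 0.31, adjusted p = 0.608). RAB5B and RAB5C, which drive early endosome fusion, and RAB4A, which serves fast recycling, had wide gaps between the CD24hi arrays. RAB5B gave 111 and 441 units on CD24hi arrays a and b, with the MSP arrays at 261 to 418 between them. RAB5C read 321 and 1005, again with the MSP arrays between them at 479 to 641. RAB4A read 212 and 598, with the MSP arrays at 173 to 340. Changes of these 3 were 0.62 ± 0.57, -0.04 ± 0.47 and -0.51 ± 0.51, so no direction could be read.

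The Golgi RABs were not called. RAB30, a Golgi RAB, read 28.7 and 28.3 in CD24hi, 66.0 and 54.5 in MSP1, 108 and 72.8 in MSP2, and 77.6 and 62.8 in MSP3. All MSP arrays were above CD24hi, which was dim, and the level of the MSP mean was at least 2.25-fold higher (1.33 ± 0.30, adjusted p = 0.0851). RAB34, which acts at the Golgi and in primary cilium formation, read 1098 and 1925 in CD24hi and 1539 to 2286 in the MSP groups (0.36 ± 0.35, adjusted p = 0.677). RAB6A, which moves vesicles from and within the Golgi, read 1302 and 1898 in CD24hi and 1123 to 1412 in the MSP groups (-0.29 ± 0.29). Of the 5 named RAB6A probe sets, 3 were dim in both, and these had changes of 0.32 to 2.61 against -0.29 and -0.33 for the brighter probe sets, none of them called.

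Outside these classes, RAB23, an antagonist of Hedgehog signalling first described in mouse, read 535 and 719 in CD24hi. It read 1100 and 1012 in MSP1, 1237 and 968 in MSP2, and 1205 and 1075 in MSP3. The groups did not overlap, and the difference of 0.82 ± 0.28 did not pass the test (adjusted p = 0.228). RAB40B, an adaptor of a ubiquitin ligase, ranged from 67.5 to 193 in CD24hi and from 88.8 to 357 in the MSP groups (0.59 ± 0.79). Its relative RAB40C ranged from 24.1 to 51.1 over all 8 arrays. RAB3A, a RAB of synaptic vesicle release, was dim on every array (8.26 to 23.7 units), as were RAB42 (8.80 to 28.5) and RAB39 (5.12 to 18.0). No fold is given for these dim genes.

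Over the 23 genes, 5 had all 6 MSP arrays below both CD24hi arrays, and 3 had all above. The 5 were RAB25, RAB38, RAB17, RAB7B and the dim RAB3A, and the 3 were RAB23, RAB24 and RAB30. Over all probe sets, 9.92% were below in this way and 11.2% above. RAB25, RAB38, RAB23, RAB24 and RAB30 have a name only through the authors' calls, and the RAB17 probe set came from the called block. The members' counts were raised by that selection and cannot be weighed against these shares. RAB17, RAB7B, RAB24 and RAB30 lay near the threshold. They were called when p-values were adjusted over named genes only, with a filter on mean log2 signal, with 16 added before the log, and with a mean-variance trend. The named genes include those picked by the authors' calls on these data, which favours calls among them. Of these 8915 genes 763 were called lower and 667 higher, so calls over named genes only are not separate support. The adjusted p over all alternatives with every array ran from 0.0147 to 0.704 for RAB17, 0.0166 to 0.133 for RAB7B, 0.0184 to 0.162 for RAB24 and 0.011 to 0.105 for RAB30. The 0.704 is that of the second RAB17 probe set, which was dim on every array and was the one named without regard to a result. RAB23 was called only with 16 added (adjusted p = 0.0419, up to 0.268 under the others).

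The changes were also read in each subpopulation against CD24hi, comparisons that share the CD24hi arrays. In MSP1, 2 members were called lower and 0 higher, where 1.03% and 0.775% of all probe sets were. In MSP2 the members' counts were again 2 and 0, with 0.811% and 0.747% of all probe sets, and in MSP3 2 and 0, with 0.787% in each direction. In limma at an unadjusted p under 0.05, 2 members were higher in MSP1, 2 in MSP2 and 3 in MSP3, drawn from RAB23, RAB24 and RAB30. At that p 6.46%, 6.86% and 7.18% of all probe sets were higher. The called pair was RAB25 and RAB38 each time. All of these genes have a name only through the authors' calls in the same comparisons. The counts were raised by that selection and cannot be weighed against the shares of all probe sets.

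**Figure D3:**
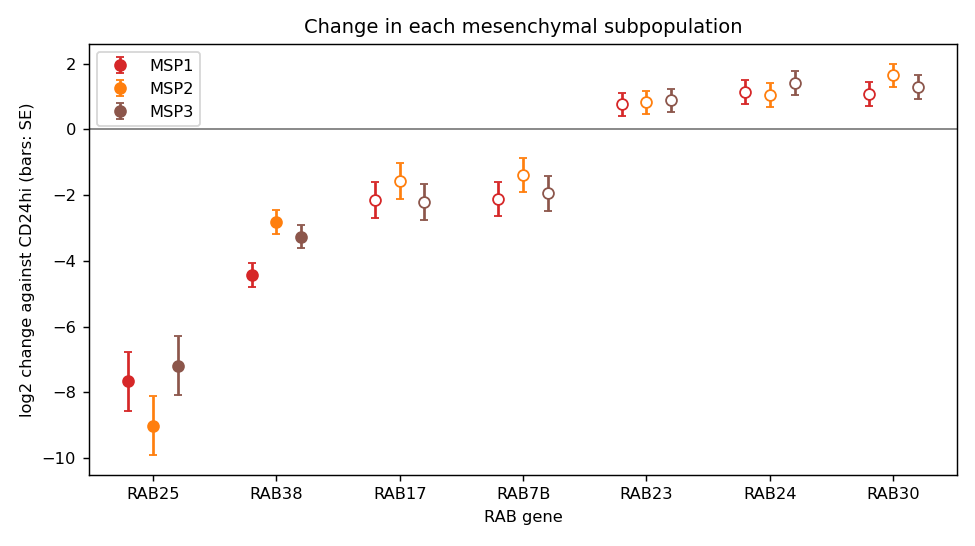
Log2 change against CD24hi in MSP1, MSP2 and MSP3 for the 7 RAB genes with an unadjusted p under 0.05 in the mean contrast, bars giving the SE and filled points those called. RAB38 is at -4.42 in MSP1, -2.82 in MSP2 and -3.26 in MSP3, while RAB17, RAB7B, RAB23, RAB24 and RAB30 are open in every group.

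RAB25 changed by -7.66 ± 0.90 in MSP1 (adjusted p = 0.0191), -9.01 ± 0.90 in MSP2 (adjusted p = 0.0161) and -7.19 ± 0.90 in MSP3 (adjusted p = 0.0241). Each of these is at least 18.3-fold, and the differences among them lie within the dim range. RAB38 was 21.4-fold lower in MSP1 (level 72.4, -4.42 ± 0.36, adjusted p = 0.00762), 7.08-fold lower in MSP2 (level 219, -2.82 ± 0.36, adjusted p = 0.0256) and 9.60-fold lower in MSP3 (level 162, -3.26 ± 0.36, adjusted p = 0.0176). These single-group calls were fragile. The RAB25 calls were lost in every subpopulation without CD24hi a or CD24hi b and without either array of the subpopulation itself, and in MSP3 also without either MSP2 array. The RAB38 call was lost in MSP1 without either MSP1 array. In MSP2 it was lost without any array other than CD24hi a, and in MSP3 without CD24hi b or any MSP1 or MSP3 array. With the array letter as a replicate block, RAB25 was not called in MSP1 or MSP3 (adjusted p = 0.0548 and 0.062) and RAB38 not in MSP2 (0.0544).

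Among the subpopulations themselves no RAB gene was called, and neither was any other probe set (0% lower or higher in each of the 3 contrasts). RAB38 gave the smallest adjusted p of the members. It was 3.03-fold lower in MSP1 than in MSP2 (-1.60 ± 0.36, limma adjusted p = 0.508). It was 2.23-fold lower in MSP1 than in MSP3 (-1.16 ± 0.36, limma adjusted p = 0.916). Both MSP1 arrays lay under all 4 arrays of MSP2 and MSP3. In limma at an unadjusted p under 0.05 there were 2 members lower in MSP1 than in MSP2, RAB38 and the dim RAB42, 1 lower in MSP1 than in MSP3, and 0 between MSP2 and MSP3. Over all probe sets at that p, 2.88% were lower in MSP1 than in MSP2 and 2.37% lower in MSP1 than in MSP3. Between MSP2 and MSP3, 2.04% were lower and 2.48% higher in MSP2.

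The CD24hi arrays differed from each other more than the MSP pairs did, in these genes and over the whole array. On array a, 20 of 23 RAB genes were lower than on array b. Of the 14 genes with a mean signal of at least 128, all 14 were lower on a, with a median difference of -0.90 on the log2 scale. Over all 13551 probe sets that bright, the median was -0.10 and 7440 were lower on a. The widest gap was that of RAB5B, -1.99, followed by RAB5C at -1.65 and RAB40B at -1.52. In MSP1, MSP2 and MSP3 the medians of the 14 were 0.30, 0.32 and 0.25. More than 2-fold between a and b were 42.9% of the 14 in CD24hi, against 23.5% of all bright probe sets, and 0%, 7.14% and 7.14% of the 14 in MSP1, MSP2 and MSP3. Over all bright probe sets the shares in these 3 groups were 1.31%, 4.75% and 5.65%.

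**Figure D4:**
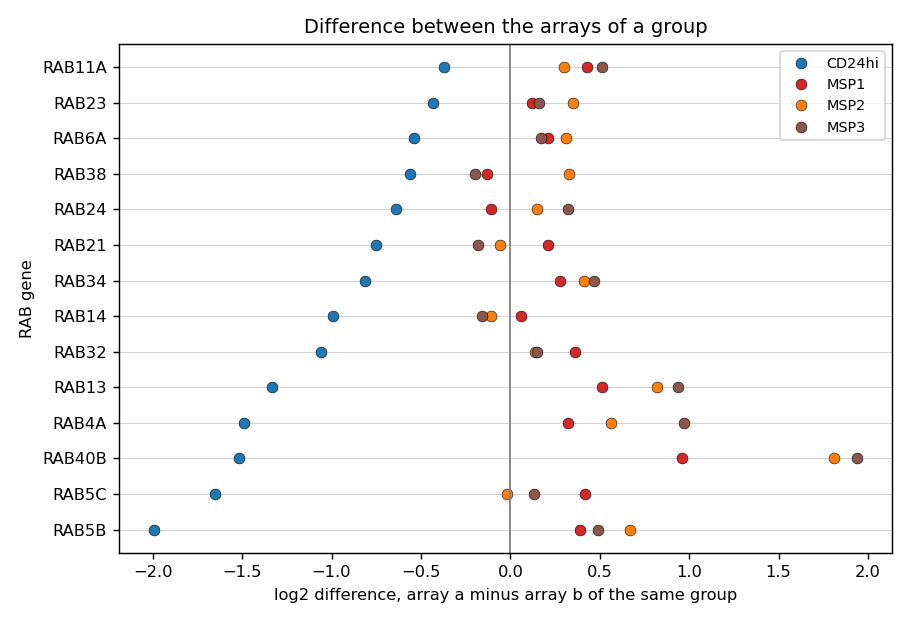
Log2 signal of array a minus array b within each group, for the 14 RAB genes with a mean signal of at least 128. All CD24hi points lie below 0, down to -1.99 for RAB5B, and most MSP points lie above it.

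The choice of CD24hi array set the direction of many RAB genes, as it did for many bright probe sets of the whole array. In 10 of 23 genes the change against CD24hi had one sign without CD24hi a and the other without CD24hi b. These were RAB13, RAB14, RAB32, RAB34, RAB39, RAB40B, RAB40C, RAB4A, RAB5B and RAB5C, and 8 of them were among the 14 bright genes. Of all bright probe sets 41.9% turned, so turning was not particular to RAB genes. Without CD24hi a, 18 of 23 genes were lower in the MSP groups, with a median of -0.42, and without CD24hi b 10 were, with a median of 0.43. Among the bright genes 11 and 3 of 14 were lower, against 49.6% and 42.8% of all bright probe sets. RAB5B went from -0.37 without CD24hi a to 1.62 without CD24hi b. RAB38 (-3.78 and -3.23), RAB17 (-2.24 and -1.71), RAB7B (-1.98 and -1.66), RAB24 (0.88 and 1.52), RAB23 (0.61 and 1.03) and RAB30 (1.34 and 1.32) kept their sign. ACTB, whose 3′ to 5′ probe set ratio measures RNA degradation, gave a ratio of 1.47 for CD24hi a, 1.10 for CD24hi b and 1.13 to 1.25 for the MSP arrays. Its part in these differences was not tested.

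The genes that load, activate and carry RABs were described from lists of regulators and effectors. Of 117 listed genes 61 were measured, and 5 were called lower (8.20%) and 1 higher (1.64%), with a median change of 0.03. Over all probe sets 1.59% were called lower and 1.58% higher. Of the 61, the authors' calls alone had named 8, which held 4 of the 6 calls, while the 53 others held 2. The 2 were MYO5B and EXPH5. Their probe sets used here also came from the called block, so all 6 calls rest on that block. None of the 7 GDP dissociation inhibitors, escort and prenylation genes passed the test. Of these GDI2, which extracts RABs from membranes, read 3550 and 3616 in CD24hi and 3854 to 4547 in the MSP groups (0.23 ± 0.25, adjusted p = 0.723). None of 11 exchange factors passed, but 5 of them were dim on every array. RABGEF1, which activates RAB5, read 679 and 234 in CD24hi and 219 to 472 in the MSP groups (-0.33 ± 0.55). None of 16 GTPase-activating proteins passed, and 3 of them were dim on every array. RAB3GAP2, a subunit of the RAB3 GTPase-activating complex, read 1170 and 596 in CD24hi and 719 to 811 in the MSP groups (-0.12 ± 0.34).

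Of the GTPase-activating proteins, 4 were called under some alternatives that kept every array, and none of the 4 overlapped between CD24hi and the MSP groups. Others of the list, SGSM2 and TBC1D5 among them, did not overlap either. Over all probe sets 9.92% had all MSP arrays below both CD24hi arrays and 11.2% all above. TBC1D4, which acts on the RABs of glucose transporter vesicles, read 312 and 456 in CD24hi and 86.6 to 169 in the MSP groups (-1.76 ± 0.34, adjusted p = 0.0569). TBC1D8 read 164 and 136 in CD24hi and 364 to 515 in the MSP groups (1.43 ± 0.27, adjusted p = 0.052). TBC1D9 read 317 and 349 against 591 to 645 (0.88 ± 0.25, adjusted p = 0.150), and TBC1D2B 164 on both CD24hi arrays against 242 to 312 (0.78 ± 0.25, adjusted p = 0.202). TBC1D8, TBC1D9 and TBC1D2B have a name only through the authors' calls. TBC1D4, TBC1D8 and TBC1D9 were called over named genes only and with the filter, the offset and the trend, and TBC1D2B with the filter and the offset. As above, calls over named genes only are not separate support. With the floor TBC1D2B, TBC1D8 and TBC1D9 were called. Over all alternatives with every array, the adjusted p ran from 0.00609 to 0.105 for TBC1D4, 0.00336 to 0.0778 for TBC1D8, 0.00818 to 0.188 for TBC1D9 and 0.0173 to 0.231 for TBC1D2B.

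Effectors of the recycling RABs gave 3 falls among 12 measured genes and no rise, with a median of -0.05, where 1.59% of all probe sets were called lower. Of the 3, MICALL1 and MYO5C have a name only through the authors' calls, and the MYO5B probe set used here came from the called block. MYO5B, the motor that carries RAB11 vesicles along actin, read 108 and 59.4 in CD24hi and 9.10 to 16.8 on the MSP arrays. It was at least 2.50-fold lower (-2.75 ± 0.37, adjusted p = 0.0198). MYO5C, a related motor of secretory epithelium, read 122 and 74.4 in CD24hi and 22.5 to 30.6 in the MSP groups, at least 2.97-fold lower (-1.88 ± 0.31, adjusted p = 0.0368). MICALL1, a scaffold of tubular recycling endosomes, read 1250 and 949 in CD24hi and 352 to 426 in the MSP groups, 2.89-fold lower (-1.53 ± 0.27, adjusted p = 0.0422). In all 3 genes every MSP array lay under both CD24hi arrays, and in all 3 CD24hi a was above CD24hi b. MYO5A, the related motor of pigment granules, had a level of 308 in both and RAB11FIP2, which links RAB11 to MYO5B, changed by 0.42 ± 0.27, and neither was called.

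**Figure D5:**
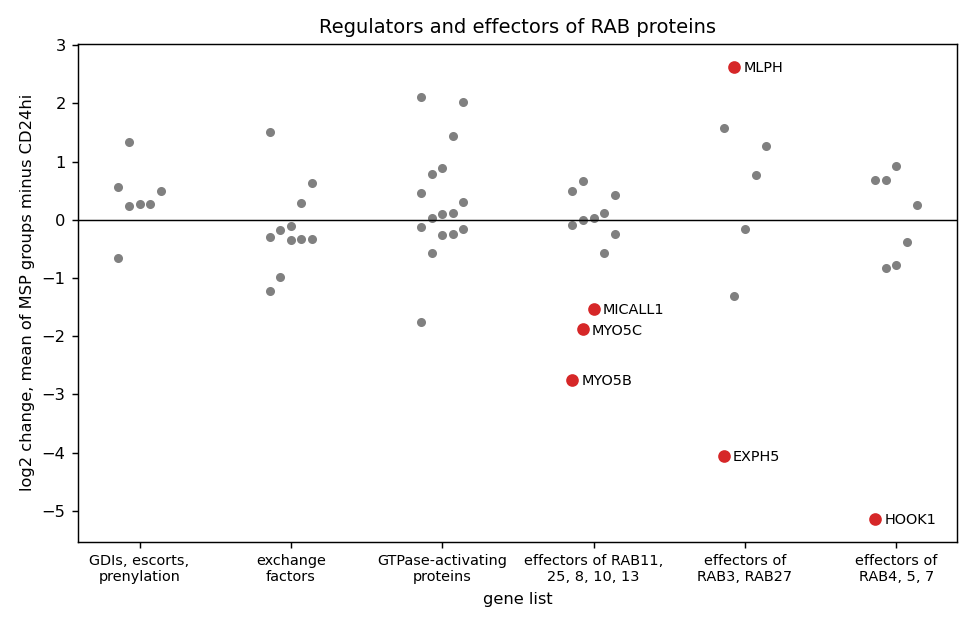
Log2 change of 61 RAB regulators and effectors, mean of the MSP groups minus CD24hi, by list; red labelled points were called. The called genes are MYO5B, MYO5C, MICALL1, EXPH5 and HOOK1 below 0 and MLPH above it, and no gene of the regulator lists was called.

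Of 7 measured effectors of RAB3 and RAB27, 1 fell and 1 rose, where 1.59% of all probe sets were called lower and 1.58% higher. EXPH5, a RAB27 effector of keratinocytes, read 751 and 282 in CD24hi and 11.1 to 55.4 in the MSP groups, at least 14.4-fold lower (-4.05 ± 0.54, adjusted p = 0.019). MLPH, which couples RAB27A to MYO5A on melanosomes, read 575 and 249 in CD24hi and 2012 to 2504 in the MSP groups, 6.20-fold higher (2.63 ± 0.38, adjusted p = 0.0236). The 5 others were dim on every array. Of 8 effectors of RAB4, RAB5 and RAB7, HOOK1 alone was called, and 2 were dim on every array. Both MLPH and HOOK1 have a name only through the authors' calls, and the EXPH5 probe set used here came from the called block. HOOK1, a microtubule-binding cargo adaptor, read 66.7 and 86.0 in CD24hi and 0.298 to 7.26 in the MSP groups, at least 2.37-fold lower (-5.14 ± 0.65, adjusted p = 0.0153).

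These effector calls changed when an array was left out, which left a single array in its group, and they differed with the array left out. Whether the number of arrays or the array itself mattered was not tested. Without CD24hi a the called regulators and effectors were MLPH and SGSM2, a GTPase-activating protein. The MYO5C and MICALL1 calls were lost without any array. The MYO5B call was kept without CD24hi b or MSP2 b, the MLPH call without CD24hi a, and the EXPH5 call without CD24hi b, MSP2 b, MSP3 a or MSP3 b. The HOOK1 call was lost without CD24hi a or CD24hi b. EXPH5 changed by -3.34 without CD24hi a and -4.76 without CD24hi b, and MLPH by 3.24 and 2.03. With dim signals raised to 32, MYO5B, MYO5C and MLPH were not called (adjusted p = 0.125, 0.0565 and 0.0609), and the 3 GTPase-activating proteins above took their place in a count of 6. With the mean of each gene's probe sets MYO5B and EXPH5 were not called (adjusted p = 0.099 and 0.298). With the array letter as a replicate block MICALL1 and MYO5C were not called (adjusted p = 0.0754 and 0.0616), which left 4 of the 6.

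The authors' deposited table gave RAB25 a log2 fold change of -5.76 in MSP1, -5.60 in MSP2 and -5.63 in MSP3, each against CD24hi. For RAB38 the authors' deposited table gave -3.54, -2.62 and -3.11 in the same order. In the authors' deposited table RAB30 had 1.29, 1.73 and 1.41, RAB23 had 1.32, 1.30 and 1.35, and RAB17 had -1.62, -1.62 and -1.70. At the p of 0.05 or less, 4 members were lower and 3 higher in MSP1 in the authors' deposited table, 3 and 3 in MSP2, and 4 and 3 in MSP3. All of these members but RAB7B came from the block of 2256 probe sets that had passed in all 3 comparisons. Their counts were thus fixed by that selection. Over all rows of the authors' deposited table, that block included, 7.50% were lower and 7.56% higher in MSP1, 7.23% and 7.32% in MSP2, and 7.48% and 7.53% in MSP3. Whether that p is adjusted is not stated in its header.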

How the data were processed

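Total RNA was biotin-labelled and hybridised to 8 arrays, 2 in each of 4 groups taken from the labels. The deposited values are linear intensity signals per probe set, scaled by the authors to a common trimmed mean (150 over the middle of each array, with 2% cut from each end). The algorithm is not given in the sources used here, nor is a genome build. Expression Console from Affymetrix and limma stand in the submitters' processing notes. The authors' second table gives, per the file headers, a p-value, a log2 fold change and a mean log2 level for each MSP group against CD24hi, and was the only source of gene names.

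Here the log2 of the signals, without offset, was fitted with limma 3.58.1 in R 4.3.3, 1 mean per group over all 8 arrays (4 residual and 2.08 prior degrees of freedom). P-values are two-sided and Benjamini-Hochberg adjusted over 54613 probe sets, after 62 controls were left out. Changes are log2 ± SE, levels geometric means. The fit was tested on simulated data. The dim limit of 32 was chosen with the values known.

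The members and lists were chosen with earlier results of these data known. The rule named RAB25, RAB38 and RAB11A, every called member, the 3 widest changes not called, the member of highest mean signal in each class, and for each effector or regulator list the called genes or the one of highest mean signal. Other members, MYO5A, RAB11FIP2, SGSM2, the TBC1D genes and the marker genes were named after their values were seen. Upstream sequences are from RefSeq. RAB39, an old symbol that 2 current genes carry as a synonym, was kept as listed and put in no class. Alternatives were named genes only, quantile normalization, a filter, a floor, an offset, a variance trend, the mean of probe sets, a replicate block and leaving out each array.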

Additional observations from a re-analysis of the deposited data

How the results depend on the processing

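The change of RAB25 and that of RAB38 in the mean contrast kept their direction under every alternative in which they could be tested, and RAB38 kept its call. RAB25 left the test with the filter at a mean log2 signal of 5 or more, and its change ran from -8.47 to -7.43 when an array was left out, with the call lost without CD24hi b. The 2 members called lower became 4 over named genes only, with an offset of 16 and with a mean-variance trend, and 1 to 2 when an array was left out. Members called higher went from 0 to 2 over named genes only, with the filter and with the trend, and to 3 with the offset. The set of named genes is enriched by the authors' calls, so added calls over it are not separate support. Against single groups, the 2 calls became 4 in MSP1 with the offset and 0 to 2 when an array was left out, 0 to 1 in MSP2, and 5 with the filter, 4 with the offset, 4 with the trend and 0 to 1 in MSP3. Leaving out arrays gave 1 to 3 called regulators and effectors in place of 6. The offset gave 10, named genes only 9, the trend 9, the filter 8, the floor 6, and the mean of probe sets and the replicate block 4 each. Left-out arrays turned the sign of RAB13 (-0.17 to 1.16), RAB14 (-0.55 to 0.43), RAB32 (-0.49 to 0.57), RAB34 (-0.04 to 0.77), RAB39 (-0.41 to 1.41), RAB40B (-0.17 to 1.34), RAB40C (-0.43 to 0.66), RAB4A (-1.25 to 0.24), RAB5B (-0.37 to 1.62) and RAB5C (-0.86 to 0.78). RAB40C was at -0.09 with a floor of 32, and with the mean of probe sets RAB5C was at 0.06 and RAB6A at 0.80. Except for the floor, whose construction raises dim signals, the cause was not tested.

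Array letters were also used as a replicate block. The differences between a and b correlated at 0.72 to 0.85 among the MSP groups and at -0.46 to -0.35 between CD24hi and them over 13551 bright probe sets, so the letters do not pair all groups. With the replicate block, 2 members were called lower in the mean contrast and 1 in each of MSP1, MSP2 and MSP3. Crossing the CD24hi letters, an alternative chosen after the data were seen, gave 4 lower. Restricting the table to its completely named part, likewise chosen with the data in view, left 18 members, of which limma called 0 (RAB7B had an adjusted p = 0.0968), 0 in each single group, and 0 regulators or effectors. The RAB17 probe set that remained there was dim on every array and had a log2 change of 0.65, against -1.97 for the one used above. The EXPH5 probe set that remained had a log2 change of 0.29, against -4.05 above.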
